A study of Mus musculus with 239 samples.

Results

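The annexin and S100 genes described here are Anxa1, Anxa2, Anxa3, Anxa5, S100a1, S100a4, S100a6, S100a10 and S100a11, 9 of the 18850 genes measured in single epithelial cells of the mouse mammary gland. They were taken by name and were chosen by the measured FPKM levels themselves, since Anxa1, Anxa2 and S100a6 had stood among the genes with the lowest values in cells of pregnant mice relative to virgin mice. Differences between pregnant and virgin cells are therefore given as a description, without a test. All 9 genes had a row in the expression table.

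The cells came from the fourth pair of mammary glands of female FVB mice aged 3 to 4 months, either pregnant (day 12 in the design text, day 12.5 in the protocol) or virgin. Blood-lineage and endothelial cells were depleted, and viable cells were sorted as luminal (CD24 high, CD29 low) or basal (CD24 mid, CD29 high) before capture on Fluidigm C1 chips, which hold single cells in separate chambers for lysis and cDNA synthesis. There were 49 pregnant and 54 virgin cells in the luminal gate, and 136 cells in the basal gate, of which 34 were from virgin and all others from pregnant mice. The labels do not tie a cell to a mouse, chip or day, so each group counts as 1 sample, cells are not replicates of a condition, and pregnancy cannot be told apart from the mice, chips or days of each group. The mice carried no transgene in the labels, and tissue of all 4 groups was digested in a medium that held hydrocortisone, a glucocorticoid hormone, together with insulin and EGF.

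Annexins are cytosolic proteins that bind acidic phospholipids in the presence of calcium, and so move to membranes when calcium enters a cell. S100 proteins are small EF-hand proteins that pair into dimers and, on binding calcium, expose a surface that docks on partner proteins. The families meet in complexes: an S100a10 dimer holds a pair of Anxa2 molecules at the plasma membrane, where the complex binds plasminogen and shapes cortical actin, S100a11 binds the tail of Anxa1, and S100a6 can bind Anxa2 and other annexins. In the mammary gland the luminal cells turn into milk-secreting cells during pregnancy, with heavy membrane traffic, while the basal cells become contractile myoepithelium.

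Values are FPKM, fragments scaled by transcript length and by the mapped fragments of the cell, so that levels of different genes can be set side by side. A gene was called found in a cell at 1 FPKM or more. A difference is taken between group means of log2(FPKM + 1), a scale that understates the change of low genes, and it is called past the fold at a size of at least 1. Each share of cells has an exact 95% interval (Clopper-Pearson) that covers counting error only.

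The sorted cells carried the landmarks of their gates with exceptions. Krt18, a luminal keratin, was found in all 49 pregnant luminal, all 54 virgin luminal, 42 pregnant basal (41.2%) and 13 virgin basal (38.2%) cells. Acta2, smooth muscle actin of myoepithelium, was found in 10 pregnant luminal, 3 virgin luminal, all pregnant basal and 28 virgin basal cells. Virgin basal cells had a median of 1825 genes found per cell, against 3653 in pregnant luminal, 3773 in virgin luminal and 2734.5 in pregnant basal cells, and their relative depth, read from the step size of the FPKM values, had a median of 0.708 against 1.01, 0.978 and 1.04. Endothelial markers averaged at least 1 on the log2 scale in 1 pregnant luminal, 0 virgin luminal, 4 pregnant basal and 7 virgin basal cells, and fibroblast markers in 1, 0, 1 and 2 cells. Immune markers were found in few cells, at most 5 for any single gene in any group, with Tyrobp at 0 throughout.

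Clustering without any annexin or S100 gene gave 5 clusters. Cluster 1, contractile basal-like and led by Acta2, Tagln and Myl9, held 93 pregnant basal, 9 virgin basal and 3 pregnant luminal cells. Cluster 2, milk-protein luminal-like and led by Wfdc18, Csn1s2a and Csn2, held 44 pregnant luminal and 16 virgin luminal cells. Cluster 4, hormone-sensing luminal-like and led by Wfdc2, Cited1 and Ly6d, held 28 virgin luminal cells and no other group. Clusters 3 (29 cells, 22 of them virgin basal, led by Slpi, Krt17 and Sparc) and 5 (17 cells from all 4 groups, led by Nupr1, Fabp4 and Crip1) were not named. The 3 pregnant luminal cells of cluster 1, and 1 pregnant luminal cell of cluster 5 with a fibroblast marker score of 9.19 and 2760 FPKM of the collagen gene Col1a1, stood apart from their gate. Luminal results are therefore also given within the milk-protein cluster, which holds none of these 4 cells. That cluster does hold the 1 pregnant luminal cell with endothelial markers at 1 or more.

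In luminal cells, S100a6 and Anxa2 were far lower in pregnant than in virgin mice, Anxa3 was found in almost no pregnant cell, and Anxa1 and S100a11 stayed among the strongest genes of the family in both states. In basal cells the picture differed: Anxa1 was lower in pregnant cells, while S100a1, S100a11, S100a6, Anxa2, Anxa5 and S100a10 had higher means, in a contrast where the median of all genes was also higher by 0.61. The signs of S100a11, S100a10 and Anxa2 there turned among cells between the quartiles of gene number, to -0.86, -0.59 and -1.15. Luminal and basal cells also ranked the members differently, with Anxa1 first in pregnant luminal cells and S100a11, S100a10 and Anxa2 first in pregnant basal cells. The plot of levels by cell shows all 9 genes.

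**Figure D1:**
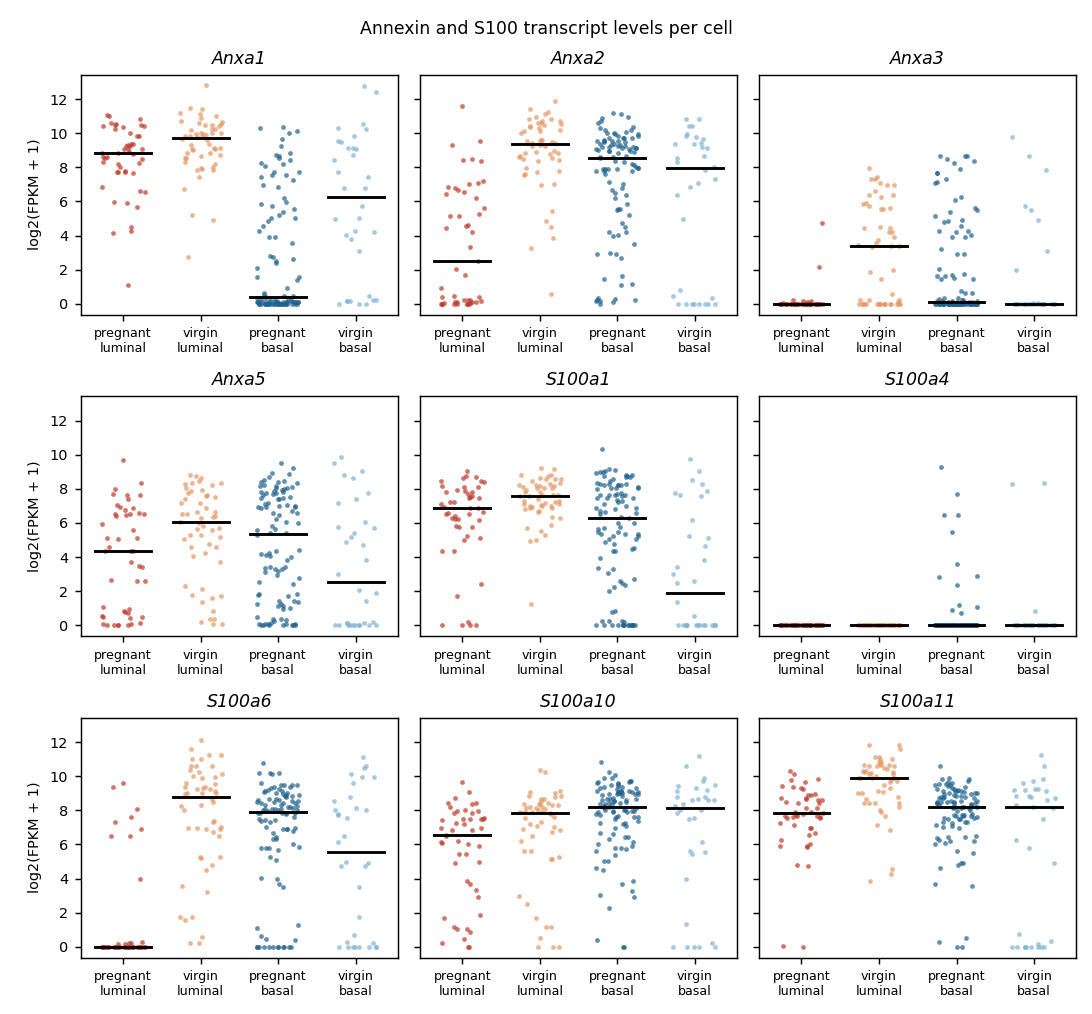
Level of each gene in every cell, as log2(FPKM + 1), with pregnant luminal, virgin luminal, pregnant basal and virgin basal cells from left to right in each panel; points are cells, spread sideways at random, and the black line is the group median. S100a6 sits at 0 in most pregnant luminal cells and well above 0 in most virgin luminal cells, Anxa1 is near 0 in most pregnant basal cells, and S100a4 is at 0 in all luminal cells.

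The members made up a median of 0.275% of the summed FPKM of a cell in pregnant luminal cells, 1.42% in virgin luminal cells, 0.554% in pregnant basal cells and 0.693% in virgin basal cells. The 10 strongest genes of a cell, among them milk protein genes in pregnant luminal cells, took a median of 27.9%, 11.1%, 14.1% and 16.6% of the sum in the same groups, so the share of every other gene moves with them. A median of 5 of the 9 members was found per pregnant luminal cell, 8 per virgin luminal cell and 6 per cell in both basal groups.

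S100a6, calcyclin, binds annexins and the adaptor Cacybp and is known as a gene of growth-stimulated cells. It ran from 0 through a median of 0 to 778 FPKM in pregnant luminal cells and from 0.171 through a median of 446 to 4397 FPKM in virgin luminal cells. The top of the pregnant range reached well into the virgin range, but most pregnant cells lay below every virgin cell. It was found in 9 of 49 pregnant luminal cells (18.4%, interval 8.76 to 32%) and in 51 of 54 virgin luminal cells (94.4%, interval 84.6 to 98.8%). Pregnant luminal cells averaged 1.37 ± 2.94 and virgin luminal cells 7.67 ± 3.14 (log2 scale, SD over cells), a difference of -6.30, which ranked 4 from the lowest among 6195 genes.

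The 9 pregnant luminal cells with S100a6 were unevenly placed. All 3 cells of the contractile cluster had it, at 672, 272 and 195 FPKM, beside 5342, 6465 and 469 FPKM of Acta2. The cell with collagen transcripts had 778 FPKM, the highest of the group. Of the 44 pregnant cells in the milk-protein cluster, 5 had it, at 159, 121, 91.2, 90.1 and 14.6 FPKM, and the cell with 91.2 FPKM also had 988 FPKM of Acta2. Without the luminal-gate cells of clusters 1 and 3, the difference between pregnant and virgin luminal cells was -6.85. The cell with collagen transcripts, which is in cluster 5, was kept in this setting.

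Anxa2, the partner of S100a10 at the plasma membrane, ran from 0 through a median of 4.65 to 3053 FPKM in pregnant luminal cells and from 0.476 through a median of 657 to 3750 FPKM in virgin luminal cells. Pregnant cells were spread over the whole range, with many near 0, while virgin cells were nearly all high. It was found in 27 of 49 pregnant cells (55.1%, interval 40.2 to 69.3%) and in 53 of 54 virgin cells (98.1%, interval 90.1 to 100%). Means were 3.44 ± 3.46 and 8.86 ± 2.22 in pregnant and virgin luminal cells, a difference of -5.42 that ranked 7 from the lowest. The highest pregnant value, 3053 FPKM, belonged to the cell with collagen transcripts, which is in cluster 5. Without the luminal-gate cells of clusters 1 and 3, a setting that keeps this cell, the difference was -5.68.

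S100a6 and Anxa2 had the lowest pregnant minus virgin differences of the members in luminal cells. S100a11 was lower too, at -1.88, but ranked 2 of the members by mean in pregnant luminal cells. The stretches upstream of these genes are printed for comparison. Each runs 5′ to 3′ on the plus strand of GRCm38.p6, as in RefSeq, and ends before the first base of the GENCODE gene. Capitals mark matches to an AP-1 motif (TGANTCA), a GC box (GGGCGG), a STAT motif (TTCNNNGAA) or a TATA box (TATAAA), searched on both strands.
S100a6 chr3:90612644-90612881: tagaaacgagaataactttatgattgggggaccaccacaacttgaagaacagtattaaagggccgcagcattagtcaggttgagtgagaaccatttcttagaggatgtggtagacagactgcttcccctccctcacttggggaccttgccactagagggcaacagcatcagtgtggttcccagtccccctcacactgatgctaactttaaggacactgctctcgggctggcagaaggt
Anxa2 chr9:69453433-69453619: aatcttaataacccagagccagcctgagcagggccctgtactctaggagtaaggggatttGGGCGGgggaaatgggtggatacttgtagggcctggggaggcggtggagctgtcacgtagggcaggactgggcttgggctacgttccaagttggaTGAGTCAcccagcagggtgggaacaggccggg
S100a11 chr3:93520246-93520487: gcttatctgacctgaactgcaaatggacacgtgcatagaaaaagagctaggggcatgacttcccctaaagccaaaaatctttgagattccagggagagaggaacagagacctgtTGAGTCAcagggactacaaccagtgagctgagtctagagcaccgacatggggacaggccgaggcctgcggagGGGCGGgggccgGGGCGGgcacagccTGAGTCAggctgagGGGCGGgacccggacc

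The S100a6 stretch held no match to any of the motifs, the Anxa2 stretch 1 AP-1 match and 1 GC box, and the S100a11 stretch 2 AP-1 matches and 3 GC boxes. The Anxa2 stretch is the shortest, at 187 bases, and its full window of 250 bases held 1 AP-1 match, 3 GC boxes and 1 TATA box. Over the 250 bases before the start of 32851 RefSeq promoters, 6.75% held an AP-1 match, 32.7% a GC box, 7.02% a STAT match and 12.4% a TATA box. A match is a run of letters and not a measured site. RefSeq gave a promoter for 7 of the 9 members, all but Anxa3 and S100a10.

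All 5 S100 members lie in 1 stretch of mouse chromosome 3 (GRCm38, GENCODE annotation) from S100a1 (90511034 to 90514392, minus strand) to S100a10 (93555080 to 93564643, plus strand), which holds 13 of the S100 genes considered here. S100a6 (90612882 to 90624181, plus strand) starts 6836 bases beyond the end of S100a4 (90603771 to 90606045, plus strand), with S100a5 between them, and S100a11 (93520488 to 93526287, plus strand) lies 28792 bases before S100a10. S100a6 was found in 94.4% of virgin luminal cells, while its neighbours S100a4 and S100a5 were listed at 0 in every luminal cell. S100a1 and S100a13, which lie 42 bases apart, differed alike between pregnant and virgin luminal cells, at -1.23 and -1.22. They were less alike in the other comparisons, at 2.28 and 1.42 between pregnant and virgin basal cells. Luminal minus basal, they differed by 0.76 and -0.12 in pregnant and by 4.26 and 2.53 in virgin mice. The annexins are scattered, with Anxa5 on chromosome 3 (36448923 to 36475894, minus strand), Anxa3 on chromosome 5 (96793339 to 96845966, plus strand), Anxa2 on chromosome 9 (69453620 to 69491795, plus strand) and Anxa1 on chromosome 19 (20373428 to 20390944, minus strand).

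Anxa1, which is induced by glucocorticoids and acts on formyl peptide receptors to dampen inflammation, was found in every luminal cell. It ran from 1.15 through a median of 462 to 2139 FPKM in pregnant luminal cells and from 5.74 through a median of 849 to 7150 FPKM in virgin luminal cells. These ranges overlap over nearly their whole length, and the difference of -0.88 was below the size set for a call. In basal cells it ran from 0 through a median of 0.332 to 1320 FPKM in pregnant cells and from 0 through a median of 80.8 to 6960 FPKM in virgin cells, and it was found in 46 pregnant (45.1%) and 25 virgin (73.5%) basal cells.

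Basal cells of both states thus spanned a wide range of Anxa1, and the pregnant cells were bunched near 0. Means were 2.82 ± 3.48 in pregnant and 5.73 ± 4.13 in virgin basal cells, a difference of -2.91 that ranked 1 from the lowest among 3937 genes. The receptor gene Fpr1 was listed at 0 in every cell, and Fpr2 was found in 1 cell, a virgin luminal one.

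S100a11, which binds Anxa1 and Anxa2 and takes part in membrane repair, ran from 0 through a median of 227 to 1276 FPKM in pregnant luminal cells and from 13.6 through a median of 965 to 3712 FPKM in virgin luminal cells. Pregnant luminal cells were lower as a body but overlapped with the virgin cells over most of the range. The difference was -1.88. In basal cells the medians were close, at 297 FPKM in pregnant and 288 FPKM in virgin cells, and the difference of means, 2.07, came with a found transcript in 98 pregnant (96.1%) and 22 virgin (64.7%) cells. It turned to -0.81 among cells with at least 2000 genes. An annotated S100a11 pseudogene may share reads with it, and the sources used here do not say how such reads were counted.

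S100a10, which takes the same partner surface on Anxa2 without needing calcium, ran from 0 through a median of 93.9 to 810 FPKM in pregnant luminal cells and from 0 through a median of 231 to 1334 FPKM in virgin luminal cells. Both luminal groups covered the range, with the virgin cells placed higher. The difference of -1.08 turned to 0.37 without the hormone-sensing cluster, whose 28 cells averaged 8.02. In basal cells, where it was first or second of the members by mean, it had medians of 293 FPKM in pregnant and 285 FPKM in virgin cells and was found in 99 pregnant (97.1%) and 28 virgin (82.4%) cells.

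S100a1, a dimer best known from heart and skeletal muscle where it binds calcium pumps and channels, was found in 44 pregnant and all 54 virgin luminal cells. It ran from 0 through a median of 117 to 522 FPKM in pregnant and from 1.39 through a median of 192 to 606 FPKM in virgin luminal cells, a difference of -1.23. Basal cells ran from 0 through a median of 78.9 to 1287 FPKM in pregnant and from 0 through a median of 3.08 to 856 FPKM in virgin mice, with the gene found in 82 pregnant (80.4%) and 18 virgin (52.9%) cells. Pregnant basal cells were mostly high and virgin basal cells were spread over high and low values, and the difference was 2.28.

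Anxa5, whose protein binds phosphatidylserine and is used to stain dying cells, ran from 0 through a median of 19.1 to 841 FPKM in pregnant luminal and from 0.041 through a median of 64.6 to 453 FPKM in virgin luminal cells. Both groups held many low values, down to 0 in pregnant cells, and the highest value was that of the pregnant cell with collagen transcripts. The luminal difference was -1.46. Medians were 39.5 FPKM in pregnant and 5.14 FPKM in virgin basal cells, where the difference was 1.13.

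Anxa3 was the weakest annexin of the set. It was found in 2 of 49 pregnant luminal cells (4.08%), with a highest value of 25.7 FPKM, and in 32 of 54 virgin luminal cells (59.3%), with a median of 9.35 and a highest value of 247 FPKM. Nearly all pregnant luminal cells were at 0, a level that 17 of the virgin luminal cells shared. The difference was -2.88. It was found in 39 pregnant (38.2%) and 8 virgin (23.5%) basal cells, with a difference of 0.57.

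S100a4, a gene of fibroblasts, immune cells and motile cells, was not detected among 49 pregnant luminal cells, where 3 cells would be a share of 6.12% and the exact interval reaches 7.25%, nor among 54 virgin luminal cells, where these limits are 5.56% and 6.60%. It was found in 11 pregnant basal cells (10.8%), up to 630 FPKM, and in 2 of 34 virgin basal cells, up to 322 FPKM. It was the one member that did not reach 1 FPKM in 25% of the cells of a group, so the comparisons that ask for this left it out.

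For every member, the step in mean level from one group to the next in order was smaller than the larger SD over cells of the groups on either side. Virgin luminal cells had the highest mean of Anxa1, Anxa2, Anxa3, Anxa5, S100a1, S100a6 and S100a11, and pregnant basal cells that of S100a10. Pregnant luminal cells had the lowest mean of Anxa2, Anxa3, S100a6 and S100a10, virgin basal cells that of Anxa5, S100a1 and S100a11, and pregnant basal cells that of Anxa1.

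Between pregnant and virgin luminal cells, 7 of the 8 members compared were lower by at least 1 and none was higher. Of the 6195 genes present in 25% or more of the higher group's cells, 8.31% were lower and 8.01% higher by that size. The median difference of the 8 members was -1.67, beside -0.02 for all genes. Because this contrast chose the members, nothing is read from their count. Rescaling each cell to the same sum, which moves the median of all genes to -0.28, gave 8 lower members, beside 17.1% of genes lower and 7.70% higher.

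Between pregnant and virgin basal cells, 6 members were higher by at least 1 and 1, Anxa1, was lower, beside 30.7% of 3937 genes higher and 0.991% lower. The median of the 8 members was 1.20 and that of all genes 0.61, so higher values in pregnant basal cells were common to the table, and virgin basal cells were also the cells with the fewest genes found. Among cells with at least 2000 genes, of which 12 were virgin basal, S100a10 differed by -0.69, S100a11 by -0.81 and Anxa2 by 0.01. In the same cells Anxa1 differed by -3.44, S100a6 by 1.30 and S100a1 by 2.12. The plot of differences by gate shows the range over all settings.

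**Figure D2:**
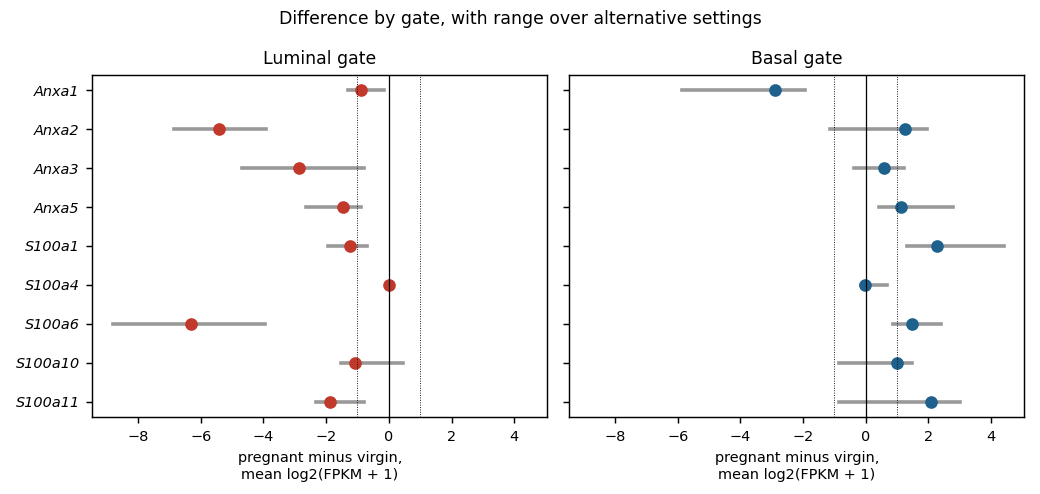
Pregnant minus virgin difference of mean log2(FPKM + 1) for each gene in the luminal gate (left, 49 and 54 cells) and the basal gate (right, 34 of its 136 cells virgin); points are the values reported and grey bars the lowest and highest value over the alternative settings, with dotted lines at the size of 1 used for a call. S100a6 and Anxa2 stay below -3.9 in the luminal gate under every setting shown, while the basal bars of Anxa2, Anxa3, S100a4, S100a10 and S100a11 cross 0.

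The gates were then set against each other within each state. Between pregnant luminal and pregnant basal cells, 1 member was higher and 4 were lower by at least 1, beside 28.8% and 9.18% of 5828 genes, and the members' median was -1.25 beside 0.57 for all genes. Anxa1 was the higher one, at 5.59, with 100% of luminal and 45.1% of basal cells positive. The lower ones were S100a6 at -5.25, Anxa2 at -3.82, S100a10 at -2.01 and Anxa3 at -1.81.

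Between virgin luminal and virgin basal cells, 7 members were higher by at least 1 and none was lower, beside 48% and 3.88% of 5699 genes. The members' median of 2.70 stood beside 0.96 for all genes. S100a1 differed by 4.26, S100a11 by 3.85, Anxa1 by 3.57, Anxa2 by 2.87 and S100a6 by 2.52, while S100a10 differed by 0.08. Among cells with at least 2000 genes, S100a11 differed by 0.88, Anxa2 by 1.46 and S100a10 by -1.86, with 12 virgin basal cells left. Without the hormone-sensing cluster the virgin difference was 0.31 for S100a6 and 2.39 for Anxa2, and between the quartiles of gene number, with 6 virgin basal cells, that of Anxa2 was 0.28. The 16 virgin luminal cells of the milk-protein cluster averaged 4.89 of S100a6, beside 5.14 in virgin basal cells.

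Virgin luminal cells belonged to clusters of unlike annexin and S100 content. In the hormone-sensing cluster, S100a6 ran from 156 through a median of 758 to 4397 FPKM and was found in 28 of 28 cells, and in the 16 virgin cells of the milk-protein cluster it ran from 0.47 through a median of 36.7 to 322 FPKM and was found in 15. The hormone-sensing cells were thus mostly above the virgin milk-protein cells. Means were 9.72 ± 1.12 and 4.89 ± 2.25. Anxa3 averaged 4.40 against 0.97, S100a10 8.02 against 5.03 and S100a11 10.48 against 8.47 in these clusters, whereas Anxa1 averaged 9.42 against 8.94.

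Values of the 44 pregnant and 16 virgin luminal cells of the milk-protein cluster are given as a description. These cells are among those whose values chose S100a6 and Anxa2, and the part of cell composition was not tested. S100a6 was found in 5 of 44 pregnant cells (11.4%), with a highest value of 159 FPKM, and in 15 of 16 virgin cells (93.8%). Its mean was 0.73 ± 2.04 in pregnant and 4.89 ± 2.25 in virgin cells of this cluster, a difference of -4.16. Anxa2 had a median of 2.64 FPKM in pregnant and 473 FPKM in virgin cells, and its difference of -4.93 was close to that of all luminal cells.

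The other members differed less in that cluster. S100a11 differed by -0.94, Anxa3 by -0.80, S100a1 by -0.76 and Anxa1 by -0.15, and S100a10 by 0.46 in the other direction. Anxa5 differed by -1.12, past the fold like S100a6 and Anxa2. The median difference of all genes within the cluster was 0.07. Nothing is read from how many members were past the fold, since the luminal contrast chose them. No pregnant luminal cell was in the hormone-sensing cluster, and Esr1, the oestrogen receptor gene, was found in 0 of 49 pregnant and 33 of 54 virgin luminal cells.

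**Figure D3:**
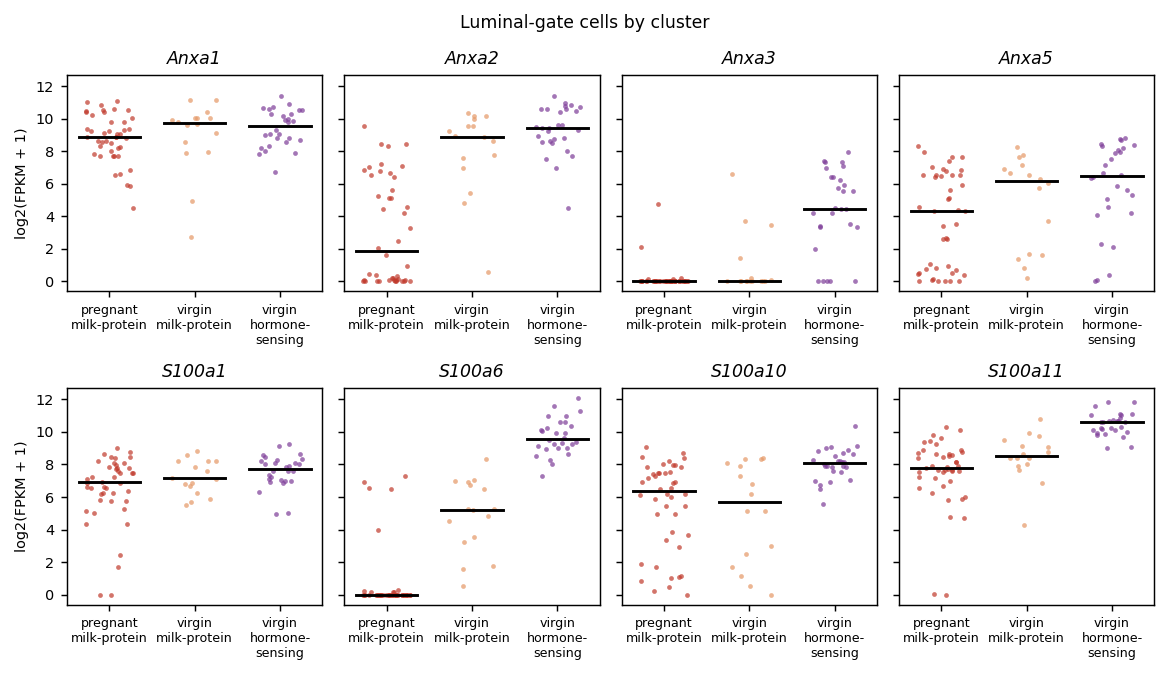
Levels, as log2(FPKM + 1), of 8 genes in luminal-gate cells of the milk-protein cluster (44 pregnant cells, then 16 virgin cells) and of the hormone-sensing cluster (28 virgin cells); points are cells and the black line is the median. S100a6, S100a10, S100a11 and Anxa3 lie higher in the hormone-sensing cells, and S100a6 and Anxa2 are lower in pregnant than in virgin cells within the milk-protein cluster.

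Across the 54 virgin luminal cells, S100a6 rank-correlated at 0.71 with a score of hormone-sensing genes, at -0.66 with luminal progenitor genes and at -0.58 with milk protein genes. S100a11 gave 0.68, -0.55 and -0.50 for the same scores, and Anxa2 only 0.19 for the hormone-sensing score. In pregnant basal cells, S100a6 gave 0.46 with the basal identity score, 0.38 with contractile genes and 0.35 with the number of genes found. These correlations describe cells that share a library type, depth and composition. They were taken over each group as a whole, and the part of cluster differences in them was not tested.

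**Figure D4:**
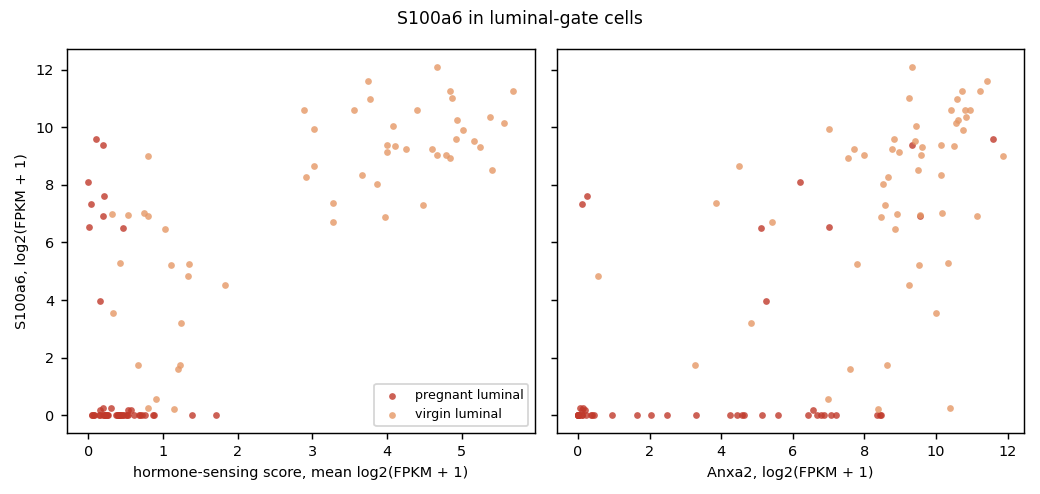
S100a6 in luminal-gate cells, as log2(FPKM + 1), against the hormone-sensing score (left, mean log2(FPKM + 1) over its genes) and against Anxa2 (right); red points are the 49 pregnant and orange points the 54 virgin cells. All virgin cells with a high hormone-sensing score have S100a6 above 6 on the log2 scale, and many pregnant cells have Anxa2 without S100a6.

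Known binding partners were then compared cell by cell. Anxa2 and S100a10 were both found in 26 of 49 pregnant luminal cells, while 18 had S100a10 alone, 1 had Anxa2 alone and 4 had neither. In virgin luminal cells 49 of 54 had both, 4 had Anxa2 alone and 1 had S100a10 alone. Cells with S100a10 but no Anxa2 were thus mostly pregnant luminal cells in the luminal gate. Anxa2 was chosen for its low values in pregnant cells, so nothing is read from this about the pair. In the basal gate, 92 pregnant and 22 virgin cells had both transcripts, 7 pregnant and 6 virgin cells had S100a10 alone, and 2 pregnant and 1 virgin had Anxa2 alone.

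The rank correlation of Anxa2 with S100a10 was 0.41 in pregnant and 0.61 in virgin cells of the luminal gate, and 0.24 in pregnant and 0.08 in virgin cells of the basal gate. Within the 28 hormone-sensing cells it was 0.66. Anxa1 with S100a11 gave 0.32 in pregnant and 0.19 in virgin luminal cells, and 0.10 in pregnant and 0.22 in virgin basal cells, lower than Anxa2 with S100a10 in each group but virgin basal. Over all pairs of members the median was 0.13 for pregnant and 0.34 for virgin luminal cells, and 0.11 for pregnant and 0.14 for virgin basal cells.

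Virgin luminal cells held 8 of 28 pairs at 0.5 or more, led by S100a6 with S100a11 at 0.76 and S100a10 with S100a11 at 0.75. Pregnant luminal cells held 1 such pair, and the basal groups held none of their 36. Within the hormone-sensing cluster S100a6 with S100a11 gave 0.57 and S100a10 with S100a11 0.65, and within the 16 virgin cells of the milk-protein cluster they gave 0.16 and 0.52. Both pairs had lower values within each of these clusters than over all virgin luminal cells. The other pairs at 0.5 or more follow, over all virgin luminal cells, hormone-sensing cells and virgin milk-protein cells in turn. Anxa2 with S100a11 gave 0.58, 0.61 and 0.66. Anxa2 with S100a6 gave 0.53, 0.65 and 0.52, and Anxa2 with S100a10 0.61, 0.66 and 0.36. S100a6 with S100a10 gave 0.56, 0.57 and 0.08. Anxa3 with S100a6 gave 0.63, 0.43 and -0.17, and Anxa1 with Anxa2 0.52, 0.49 and 0.2.

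Of the genes outside both families, those closest to S100a6 across the cells of all 4 groups, after the mean of each group was taken off, were Pdpn (Pearson 0.44), Tagln2 (0.43), Tpm2 (0.43), Myl9 (0.42) and Plec (0.42), searched among 6660 genes. Pdpn, a membrane glycoprotein of basal cells, gave 0.82 in pregnant luminal but 0.00 in virgin luminal cells, and Myl9, a myosin light chain, 0.77 and 0.03. Tagln2, an actin-binding protein, gave 0.61 and 0.77. S100a6 was found in 9 pregnant luminal cells, among them the 3 of the contractile cluster, so the values of that group rest on few cells.

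Closest to Anxa2 were Myadm (0.40), Ahnak (0.37), Krt5 (0.37), Tmsb10 (0.34) and Dpysl2 (0.34). Ahnak, a very large scaffold that binds the complex of Anxa2 and S100a10, gave 0.57 in pregnant and 0.51 in virgin luminal cells. In basal cells Ahnak gave 0.22 in pregnant and 0.39 in virgin mice. For Anxa1 the highest values were Tm4sf1 at 0.35, Copb2 and Emp1 at 0.30, Uap1 at 0.28 and Psma2 at 0.27.

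The rest of both families and their partners gave fewer measurable genes. Of 8 other annexins 3 could be compared in luminal cells, and Anxa4 at -1.34 and Anxa7 at -1.14 were lower in pregnant than virgin cells, while Anxa6 differed by 0.13. Of the 10 other S100 genes 3 could be compared, and S100a16 at -2.78 and S100a13 at -1.22 were lower, while S100a8 differed by -0.27. Of 19 partners and receptors 11 could be compared, and Plaur at -1.69, the urokinase receptor, and Ahnak at -1.34 were lower. No gene of these lists was higher by at least 1 in pregnant luminal cells, beside 8.01% of all genes.

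Of the genes in these lists, S100a16 had the lowest luminal difference. It was found in 18 of 49 pregnant luminal, 45 of 54 virgin luminal, 75 pregnant basal (73.5%) and 17 virgin basal (50%) cells. In basal cells, Anxa6, the largest annexin by its doubled core, differed by 2.94 between pregnant and virgin mice, S100a16 by 1.61, S100a13 by 1.42 and Anxa4 by 1.08. S100b, at -1.07, was found at up to 8.74 FPKM only, and among the partners Plat, tissue plasminogen activator, differed by -2.20, Plaur by -1.41, Cacybp by 1.74 and Sugt1 by 1.32.

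Between gates in pregnant mice, Anxa4 differed by 1.79 and Anxa6 by -2.60, S100a16 by -2.51 and the partners Tsg101 by 2.40, Ahnak by -2.01, Pdcd6 by 1.81 and Myh9 by -1.53, luminal minus basal. In virgin mice Anxa4 differed by 4.21 and Anxa7 by 1.68, S100a13 by 2.53, S100a16 by 1.88 and S100b by -1.03, while S100a8, found in 15 virgin luminal cells, was listed at 0 in every basal cell. Of 12 partners compared there, 8 were higher and 1 lower by at least 1, beside 48% and 3.88% of 5699 genes. The partners' median was 1.31, beside 0.96 for all genes. Their largest differences were Tsg101 at 2.88, Pdcd6 at 2.70, Sri at 2.57 and Plat at -2.53. Anxa4, an annexin of secretory epithelia, was thus higher in luminal cells of both states, and Anxa6 was lower in luminal cells of pregnant mice.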

How the data were processed

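Single-cell cDNA was made with the SMARTer kit on C1 chips and sequenced from Nextera XT libraries, per the labels' protocols. Trimmomatic 0.35, TopHat2 2.0.13, Cufflinks 2.2.1 and the builds mm10 and GRCm38 are named per the submitters' processing notes. The deposited table gives 1 value per gene and cell, read here as FPKM from its values and the tools named, and no read counts were used here. The sources used here name neither the annotation nor the treatment of reads with several hits. Relative depth came from the modal ratio of low values between cells, and 99.8% of 360055 low values of 7251 genes with a clear step were whole steps within 0.05.

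Groups came from the labels. From the FPKM were computed means of log2(FPKM + 1), shares of cells at 1 FPKM or more with exact 95% intervals, differences for every gene that 25% or more of the higher group's cells held, Spearman and Pearson correlations, and Ward clusters on 10 principal components of 2000 variable genes (5 clusters, mean silhouette 0.348, tried from 4 to 10). A group is 1 sample, so no p-value was computed. Python 3.11.15, numpy 2.4.6, pandas 2.3.3, scipy 1.17.1 and scikit-learn 1.9.0 were used, and the code was tested on simulated data. No filter was put on cells. Doublets were looked for under the microscope by the authors, per the labels, and no caller was run.

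Members and gene lists were chosen with earlier results of these data known. Text names all members, up to 4 genes per list and comparison with the largest difference, and the 5 genes most like Anxa1, Anxa2 and S100a6. Of 170 listed genes 169 had a row.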

Additional observations from a re-analysis of the deposited data

Results flagged for a closer look

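For 6 members the pregnant minus virgin difference had opposite signs in the luminal and the basal gate, each past the fold, and the difference between gates was not tested, since each group is 1 sample. The luminal minus basal value of that difference was -7.77 for S100a6, -6.68 for Anxa2, -3.95 for S100a11, -3.50 for S100a1, -2.59 for Anxa5 and -2.09 for S100a10. In the basal gate alone, 30.7% of 3937 genes were past the fold upward and 0.991% downward, with a median of 0.61. The share of all genes with opposite signs in the 2 gates was not computed. The luminal contrast chose the members, so nothing is read from the count of 6. The basal side of S100a10, S100a11 and Anxa2 turned in sign among cells more alike in gene number or without clusters 3 and 5, as given with the settings. The number of genes found per cell differed between pregnant and virgin basal cells (medians 2734.5 and 1825) and its part in these values was not tested.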

How the results depend on the processing

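Of 441 differences of a member under another setting, 9 that were past the fold turned in sign. Another 2, of S100a4 in the luminal gate, moved by rounding error only, since it was at 0 in every luminal cell. The other 430 neither turned from past the fold nor moved by 1 SD over cells or more. That SD is often larger than 1, so a difference among the 430 can still lose its call. For Anxa2 in basal cells, a difference of 1.26 stood beside SDs of 3.18 and 4.29. Differences below the fold also turned: S100a10 between virgin luminal and virgin basal cells (lowest -2.51), and, between pregnant and virgin basal cells, Anxa3 (lowest -0.39) and S100a4 (highest 0.68). The luminal difference of S100a10 was 0.37 without the hormone-sensing cluster and 0.46 in the milk-protein cluster only. In pregnant minus virgin basal cells S100a10 was -0.69, S100a11 -0.81 (at least 2000 genes, 12 virgin basal cells), S100a10 -0.59, S100a11 -0.86 and Anxa2 -1.15 (between the quartiles of gene number, 6 virgin basal cells), and S100a10 -0.85 and S100a11 -0.77 (without clusters 3 and 5, 9 virgin basal cells). S100a6 ranged from -8.80 to -3.95 and Anxa2 from -6.86 to -3.91 in luminal cells, and Anxa1 from -5.85 to -1.93 in basal cells. The count of lower members in pregnant against virgin luminal cells was 4 with a pseudocount of 10, 3 without the hormone-sensing cluster and 3 in the milk-protein cluster. All genes had medians of -0.01, 0.21 and 0.07 in these settings. The count of higher members in pregnant against virgin basal cells was 2 with a pseudocount of 10, 2 with at least 2000 genes, 3 between the quartiles, 3 by medians and 2 without clusters 3 and 5, and 2 were lower between the quartiles. All genes had medians of 0.23, 0.02, -0.01, 0.15 and 0.03 in these settings, in that order. In pregnant luminal against pregnant basal cells, 2 were higher with a pseudocount of 0.1. In virgin luminal against virgin basal cells, 4 were higher between the quartiles, and 1 was lower with at least 2000 genes, between the quartiles, without the hormone-sensing cluster and without clusters 3 and 5. The shares of all genes past the fold are not given for these settings, and nothing is read from these counts. The median pair correlation of virgin basal cells was -0.0632 with at least 2000 genes. Some settings leave fewer cells by construction, and otherwise the cause was not tested. The settings without clusters 1 and 3 in the luminal gate, without clusters 3 and 5, and in cluster 2 only were chosen after seeing the data. No paired analysis was possible because the numbers in the titles name cells, not animals, and the results come from no test.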

Other observations

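S100a8 and S100a9, which form calprotectin in neutrophils, were not found together. S100a8 was found in 11 of 49 pregnant luminal and 15 of 54 virgin luminal cells, up to 811 and 828 FPKM, and in 0 basal cells, while S100a9 was listed at 0 in every cell. Anxa10 and S100a5 were also listed at 0 throughout.

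S100b was found in 28 of 34 virgin basal cells and in 10 pregnant basal, 8 pregnant luminal and 3 virgin luminal cells, with a median of 2.31 FPKM in virgin basal cells and a highest value of 8.74 FPKM in any cell. Its values were low and spread over most cells, and virgin basal cells had the lowest relative depth.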
